A study of Rattus norvegicus with 18 samples.

Results

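This account covers a stretch of rat chromosome 1 on the rn4 genome build, from base 175000001 to base 200000000. Its members are the 455 non-control array probes with coordinates in that window, of 41012 distinct probes on the array, after the single probe of Uros was left out by the rule. Positions are those of the nucleus accumbens and prefrontal files; in the hippocampus files 2 of the members lie outside the window or have no position, and 3 have another name. They fall into 435 loci once probes whose intervals overlap by at least 1 base are merged. The central 5 Mb, from 185 to 190 Mb, holds 175 probes on 164 loci, with Lat in its first megabase. The flank below it holds 134 probes and the flank above it 146, each over 10 Mb. The window was chosen on strain ratios of these same arrays, so those ratios are given as a description and no test of them is offered as support.

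The arrays compared 2 rat strains that differ in ethanol preference: WHP is high preferring and WLP is low preferring. All rats were male and had never received alcohol. Each array carried RNA of 3 WHP rats, pooled in equal shares, in one dye and RNA of 3 WLP rats, pooled likewise, in the other. The RNA came from 3 brain areas (hippocampus, nucleus accumbens and prefrontal medial cortex) with 3 pool pairs each, and a second array with swapped dyes repeated every pair, which gives 18 arrays and 9 pool pairs. The labels give no age and leave unsaid if one set of rats supplied all 3 areas. Errors and p-values therefore describe the spread between pools, not between single rats. In a pool of tissue, fewer cells of a type and less RNA per cell cannot be told apart, and neither can a sequence variant under a probe and a difference in RNA level.

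Median spot signals ran from 75.9 to 199 in green (Cy3) and from 126 to 288 in red (Cy5), and the number of spots well above background ran from 29089 to 38597 (green) and from 31641 to 38703 (red). The 9 pool pairs limit the precision. Ratios of the dye-swapped arrays correlated at 0.57 to 0.71 across probes in 6 pairs, at 0.31 in hippocampus pair 3, at 0.05 in nucleus accumbens pair 3 and at -0.01 in hippocampus pair 2. Marker genes were read to check the area labels. Striatum markers (17 genes) had a mean log2 signal over that of the median probe of 3.37 ± 0.30 for the nucleus accumbens (SD, n = 6 arrays), 3.18 ± 0.65 for the arrays labelled prefrontal medial cortex and 1.96 ± 0.20 for the hippocampus, so the prefrontal arrays carried striatal marker signal. Cortex markers (12 genes) stood at 1.26 ± 0.13, 2.48 ± 0.52 and 2.82 ± 0.25 in the same order, highest for the hippocampus. The first array of prefrontal pair 1 stood apart, with striatum markers at 1.97 and cortex markers at 1.44, against 3.13 to 3.76 and 2.57 to 2.82 on the other 5 prefrontal arrays. Every other marker list was also lowest there among prefrontal arrays, such as astrocyte markers at 3.14 and microglia markers at 1.84. The first array of hippocampus pair 3 was likewise lowest of the hippocampus arrays in every list, with cortex markers at 2.32 and astrocyte markers at 4.38. Some marker lists also had median strain ratios away from 0, but their medians in single pool pairs lay on both sides of 0. The median was 0.557 for 11 meninges and fibroblast genes (single pairs -1.16 to 3.00) and 0.451 for 8 choroid plexus genes (-0.463 to 1.98). It was -0.266 for the 17 striatum genes (-0.73 to 0.28) and -0.261 for 4 red blood cell genes (-0.699 to 0.158). Their part in the members' ratios was not tested.

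The stretch is gene-rich and mixed in function. Lat encodes the adaptor that links the T cell receptor to its downstream kinases and phospholipase, and near it lie genes of leukocyte adhesion and of the inflammasome. Past Lat follows a gene block conserved in human, where its loss or gain is known from neurodevelopmental conditions. The outer parts hold medium-chain acyl-CoA synthetases, synaptic genes, a protein kinase C gene, growth signalling genes and a DNA repair gene.

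The array reports each locus through 60-base probes. The middle 30 bases are shown for 10 of the probes whose strain ratio was past 0.25 on the log2 scale in either direction and past the threshold below, because these are the sequences on which the largest values rest. They are printed 5′ to 3′ as in the deposited scanner output, in lower case with no part marked, and positions on rn4 and strands follow.
Acsm5, chr1:177790828-177790887, plus strand: tggtgcttccgagactcccagaatggtggc
TC601270, chr1:179413573-179413632, minus strand: taaaacatgttctgaggtctactgagatca
CX569427, chr1:179757593-179757652, plus strand: ggagtgagtatgtgcttagcatacagtcaa
Lat, chr1:185450886-185453574, minus strand: ggagtcatgtgaagattacgtgaatgtccc
Ino80e, chr1:186031869-186031928, minus strand: ctgacacaatcagaaaaggcgtaaacatgc
Ino80e, chr1:186040780-186041030, minus strand: tgaaggtttcccgagacaagagtttccttc
Asphd1, chr1:186123070-186123129, minus strand: ttccagcacctgagctggggtgaggctgca
ENSRNOT00000052100, chr1:186648622-186648681, minus strand: tgaccccgtttagttgcacagtctgtggca
Bcl7c, chr1:186993840-186994520, minus strand: aggagcctgttccagaattgctagaagccg
TC597993, chr1:193184228-193184287, minus strand: catggaatccttaagaggcttggcatacgg

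Of the 455 probes, 350 were detected in all areas, meaning well above background on at least 4 of 6 arrays in at least 1 strain, 62 in some areas and 43 in none. Among the 62, 36 (58.1%) were detected in the hippocampus only, against 69.4% of 6777 such probes on the array; the hippocampus arrays had the higher signals. Of 210 named genes, 180 had a probe detected in every area. The leukocyte integrin gene Itgal was detected in none, and the acyl-CoA synthetase genes Acsm1 and Acsm2 in the hippocampus only. The median level of the members detected everywhere was 8.64 on the log2 signal scale, against 8.54 for all such probes of the array.

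Strain ratios are log2 of WHP over WLP, positive where the WHP pool gave more signal. Averaged over areas, 24 of the 350 members passed limma's threshold (adjusted p under 0.05 over all probes), 11 higher and 13 lower in WHP. Over the whole array 2.85% of 28386 probes passed, 1.35% higher and 1.5% lower. In the central 5 Mb 15 of 154 passed, 3 higher and 12 lower. In the lower flank 5 of 95 passed, all higher, and in the upper flank 4 of 101, 3 of them higher. Nothing is read from these counts, since the window was chosen on the same ratios. The counts move with single pairs, and so does the share over the whole array, given in brackets. Without nucleus accumbens pair 1, 35 members passed (5.47%), and without pair 3, 14 (1.88%). Without prefrontal pair 1, which holds the array that stood apart, 28 passed (4.61%), and without pair 2 or pair 3 the counts were 12 (1.73%) and 9 (1.1%). Without hippocampus pair 1, 2 or 3 they were 9 (1.18%), 11 (1.41%) and 15 (1.22%). A block on the replicate number left 12 (1.73%). With the nucleus accumbens and hippocampus alone 7 passed (1.25%), and without the 2 pairs of lowest dye-swap correlation 6 passed (0.951%); both of these sets were chosen after seeing the data.

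**Figure D1:**
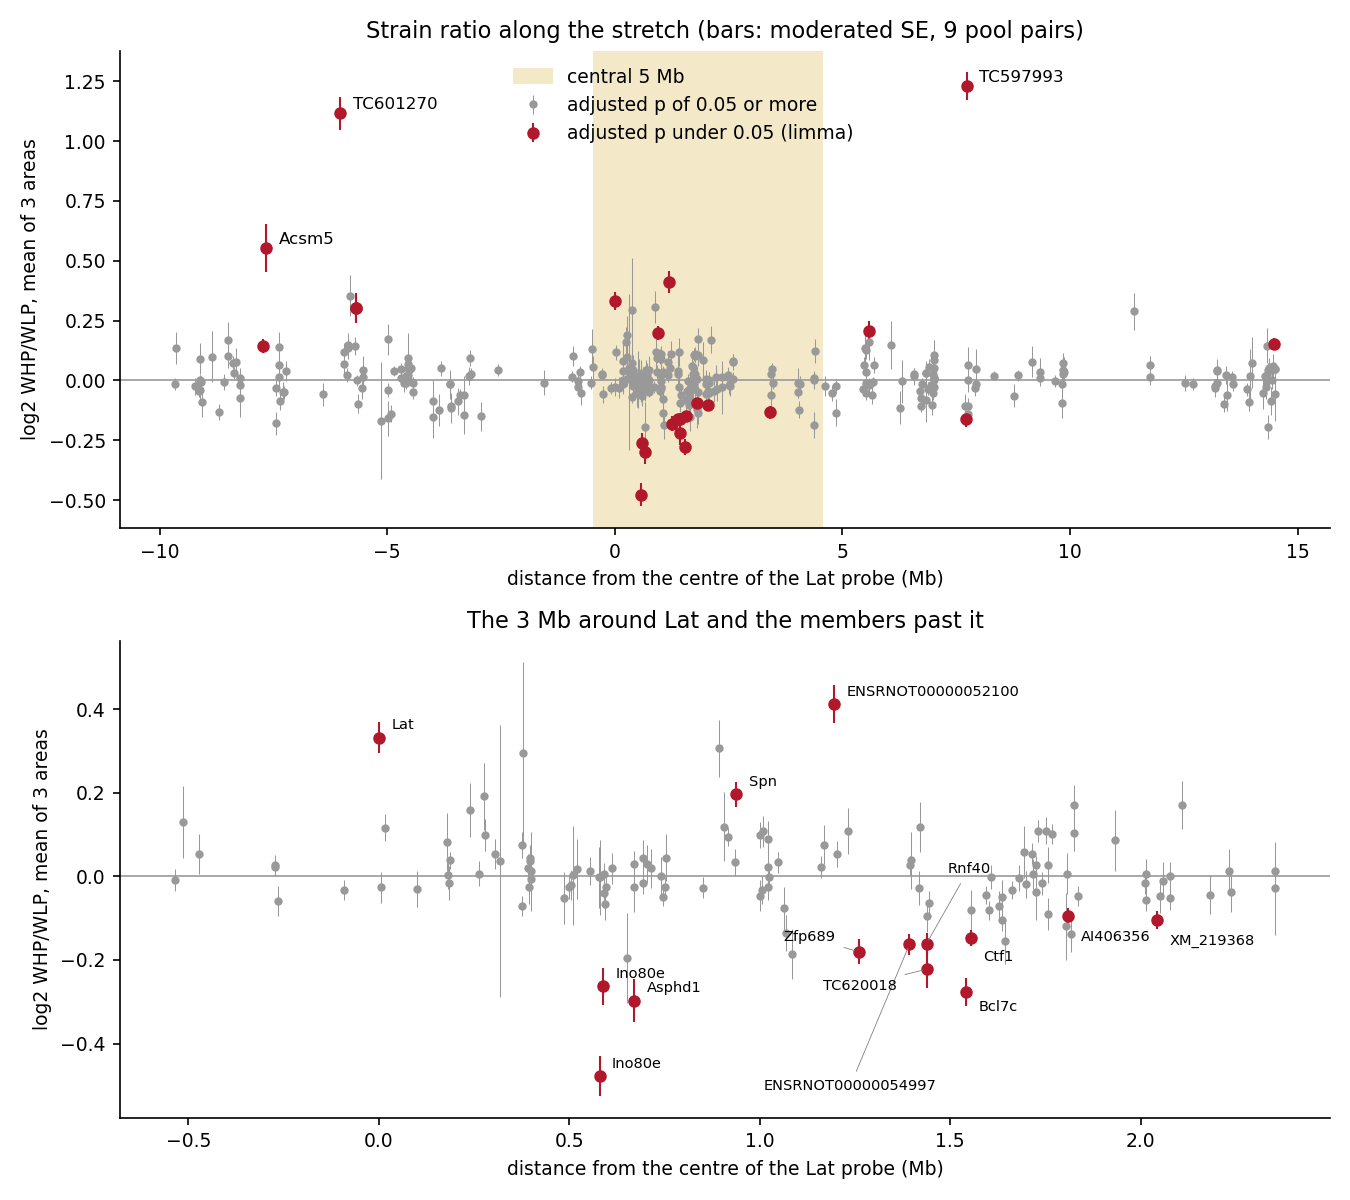
Strain ratio (log2 WHP/WLP, mean of 3 areas, bars moderated SE over 9 pool pairs) of the 350 members detected in all areas against the distance of each probe from the Lat probe in Mb, with the lower panel enlarging the part around and past Lat. The central 5 Mb hold 12 of the 13 members that passed below 0, all but Wdr11 in the first part past Lat, while the points farthest from 0 are TC601270 at 1.12 and TC597993 at 1.23 in the flanks.

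Within single areas 2 members passed in each: the unnamed probes TC601270 and TC597993, both higher in WHP. The background was 0.251% of probes in the nucleus accumbens, 0.0904% in the prefrontal medial cortex and 0.25% in the hippocampus. No member passed in limma's tests of the 3 differences between areas, where 0.0% of probes passed on the whole array. Unadjusted p-values under 0.05 were found for 16 of 351 members (4.56%, array 3.33%) between nucleus accumbens and prefrontal medial cortex, 31 of 368 (8.42%, array 8.63%) between nucleus accumbens and hippocampus, and 10 of 354 (2.82%, array 3.6%) between prefrontal medial cortex and hippocampus. No other tool was run on these differences. With an area fitted alone, no member passed in any of the 3, and the calls within areas rest on the spread shared by all 9 pairs. Without prefrontal pair 2 or pair 3, no member passed in the prefrontal medial cortex, where 0.00696% and 0.00348% of array probes passed.

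Lat was higher in WHP in every pool pair. Its ratios were 0.32, 0.53 and 0.33 in the nucleus accumbens, 0.17, 0.22 and 0.36 in the prefrontal medial cortex, and 0.47, 0.37 and 0.22 in the hippocampus. All 9 lie above 0 and the ranges of the 3 areas overlap. The mean was 0.33 ± 0.037 (moderated SE, n = 9 pool pairs), a 1.26-fold ratio. The probe, on the minus strand at chr1:185450886-185453574, covers 2689 bases of genome with 60 bases of sequence, so it crosses at least 1 intron. It was well above background in both strains on all 18 arrays. With the scanner's processed signals, which carry no offset, the ratio was 0.54, and in the other alternatives it stayed between 0.29 and 0.46. Its level on the log2 signal scale was 7.75 ± 0.022 in the nucleus accumbens, 7.83 ± 0.053 in the prefrontal medial cortex and 7.80 ± 0.066 in the hippocampus (means of 3 pool pairs), and neither level contrast between areas passed (adjusted p = 0.24 and 0.74, limma).

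Genes that act with Lat in T cell receptor signalling were read on all chromosomes. Of 22 on the array, Lat included, 16 were detected in all areas, and Lat was the 1 that passed. The median ratio over the 16 was 0.0135, against 0.00104 over all 12519 named genes measured. Of those 12519, 6336 had a positive ratio, 1.07% passed higher and 1.54% lower. The counts of the lists that follow stand beside these shares. Zap70, the kinase that phosphorylates Lat, stood at 0.25 ± 0.098 and Plcg1, the phospholipase that docks on Lat, at -0.12 ± 0.052; neither passed. The T cell receptor chain genes Cd3d and Cd3g stood at -0.01 and 0.05, and the median over 6 measured T cell markers of 11 was 0.00576.

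Of 11 measured immune genes of the stretch, counted by their brightest probe, 1 passed (Lat), with a median of 0.0365. Spn, which encodes the leukocyte surface sialoprotein CD43, has 2 probes. The dimmer one at chr1:186390717-186390776 had ratios of 0.23, 0.23 and 0.22 in the nucleus accumbens, 0.09, 0.29 and 0.36 in the prefrontal medial cortex, and 0.13, 0.08 and 0.15 in the hippocampus. All 9 were above 0, and the mean was 0.20 ± 0.030, past the threshold. In WLP it was well above background on only 12 of 18 arrays, against 18 in WHP, and with processed signals the value was 0.83. Unless those WLP arrays were spread evenly over the areas, in some area the probe counted as detected through WHP alone. WHP is the strain where it was higher, and nothing is read from its pass. The brighter Spn probe, at chr1:186388434-186388493, stood at 0.03 ± 0.033 with 6 of 9 pairs above 0. The inflammasome adaptor gene Pycard stood at 0.17 ± 0.047, the apolipoprotein B receptor gene Apobr at 0.19 ± 0.080 and the complement receptor gene Itgam at 0.09 ± 0.073, none past the threshold. C1h16orf54, an open reading frame next to Qprt and Spn, had ratios of 0.36, 0.34 and 0.69 in the nucleus accumbens, -0.18, 0.33 and 0.44 in the prefrontal medial cortex, and 0.39, 0.17 and 0.23 in the hippocampus. Only prefrontal pair 1 lay below 0, and the mean of 0.31 ± 0.067 did not pass. The median over the mean ratios of 11 microglia markers, Itgam among them, was -0.0407. Of these, 2 were positive and 1 passed, C1qa at -0.18 ± 0.038. Their part in the members' ratios was not tested.

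Of 23 measured genes of the list of chromatin, transcription and RNA factors of the stretch, 5 passed, all lower in WHP and all in the centre: Ino80e, Bcl7c, Zfp689, Rnf40 and Ctf1. The window was chosen on these ratios, and nothing is read from the count. The list's median was -0.0395. Ctf1 encodes the cytokine cardiotrophin and does not belong to the list by function. The list also holds Phkg2, a phosphorylase kinase subunit gene, which did not pass.

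Ino80e, a subunit of the INO80 chromatin remodelling complex, was lower in WHP with both of its probes. The brighter probe, at chr1:186031869-186031928 on the minus strand, had ratios of -0.38, -0.33 and -0.44 in the nucleus accumbens, -0.74, -0.41 and -0.44 in the prefrontal medial cortex, and -0.56, -0.70 and -0.31 in the hippocampus. All 9 lie below 0, with prefrontal pair 1 and hippocampus pair 2 lowest. The mean was -0.48 ± 0.048, a 1.39-fold ratio, and it passed under all 18 alternatives. The dimmer probe, at chr1:186040780-186041030, had ratios of -0.27, -0.15 and -0.08 in the nucleus accumbens, -0.41, -0.18 and -0.33 in the prefrontal medial cortex, and -0.46, -0.39 and -0.09 in the hippocampus. These too were all below 0, with a mean of -0.26 ± 0.044. Both sequences are printed above and share no position.

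Bcl7c, whose product is a subunit of BAF chromatin remodelling complexes, had ratios of -0.26, -0.12 and -0.38 in the nucleus accumbens, -0.53, -0.33 and -0.35 in the prefrontal medial cortex, and -0.12, -0.21 and -0.19 in the hippocampus. The 3 prefrontal values were among its 4 lowest and the mean was -0.28 ± 0.034. Zfp689, a zinc finger gene, stood at -0.18 ± 0.030 and Rnf40, a ligase subunit for histone H2B ubiquitination, at -0.16 ± 0.026, each below 0 in 9 of 9 pairs. The unnamed probe TC620018 lies 0.906 kb past the Rnf40 probe on the same strand. It stood at -0.22 ± 0.046 and passed in 2 of 18 alternatives. Ctf1 stood at -0.15 ± 0.020, but at -0.04 with WHP in Cy5 only and -0.26 with WHP in Cy3 only. Kat8, Maz and Hirip3, chromatin or transcription factors of the centre, stood at 0.03, -0.02 and -0.04 and did not pass.

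The conserved block from Coro1a to Spn contains Ino80e and Asphd1, and they were the 2 of its 23 measured genes that passed. The block's median was -0.00206. Asphd1, a gene of the aspartate beta-hydroxylase domain family, had ratios of -0.06, -0.39 and -0.32 in the nucleus accumbens, -0.04, -0.51 and -0.31 in the prefrontal medial cortex, and -0.42, -0.31 and -0.32 in the hippocampus. Nucleus accumbens pair 1 and prefrontal pair 1 stood near 0 and the other 7 between -0.51 and -0.31. Its mean was -0.30 ± 0.052. Mapk3, the ERK1 kinase gene, stood at -0.05 ± 0.061, Taok2 at -0.03, Kctd13 at -0.03, Doc2a at -0.002 and the actin regulator gene Coro1a at 0.01. Qprt, an enzyme of NAD synthesis, stood at 0.12 ± 0.082, with -0.50 in prefrontal pair 1.

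**Figure D2:**
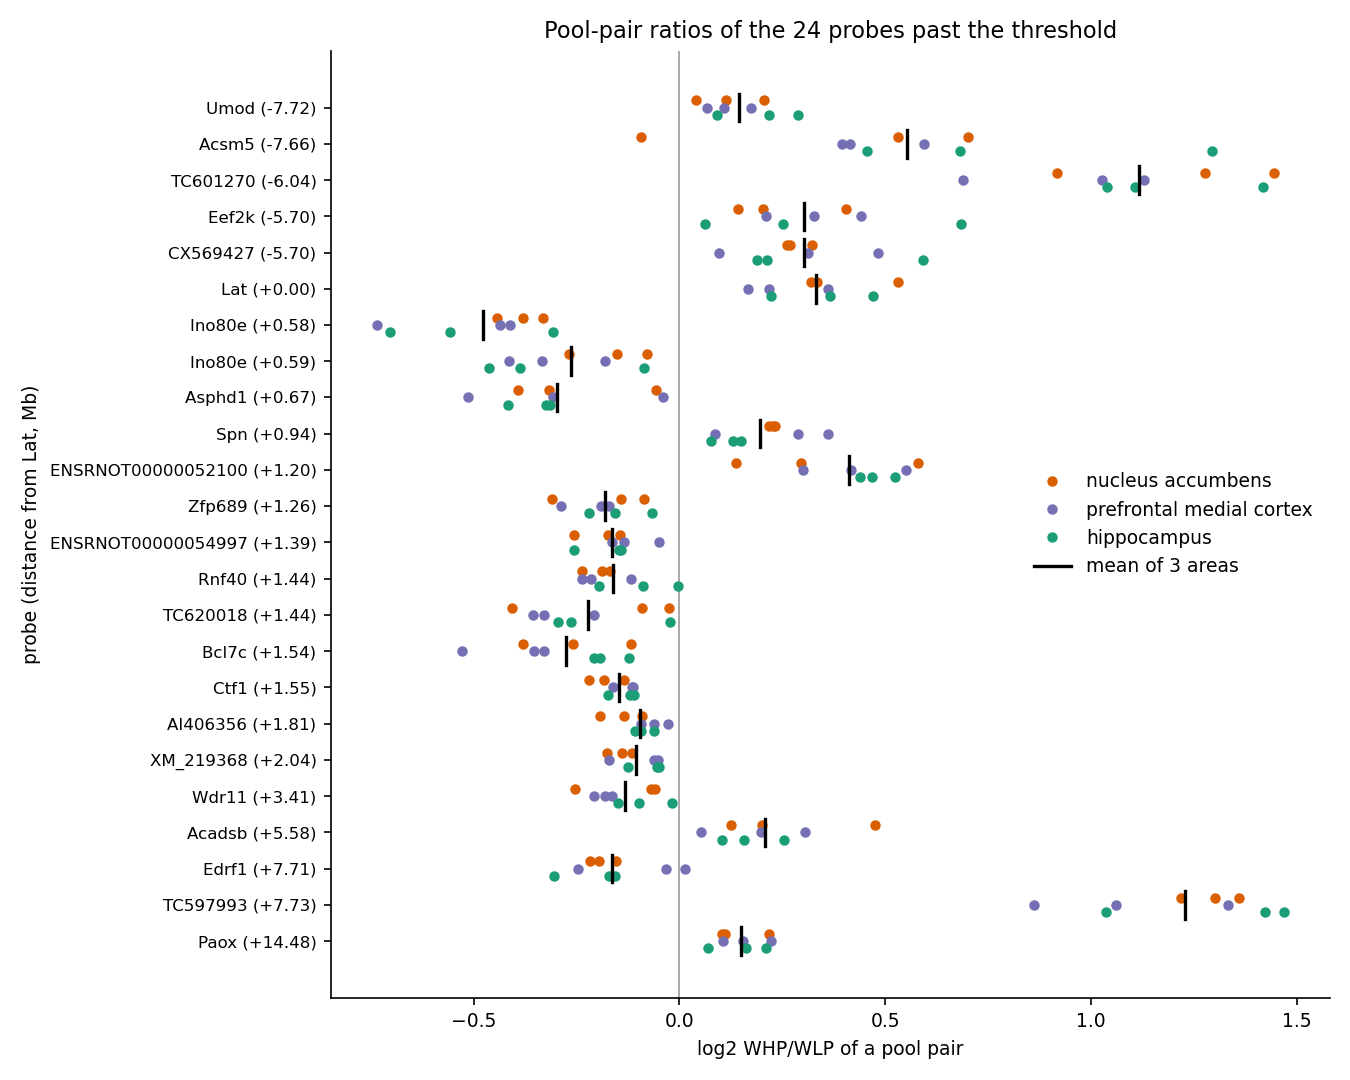
Log2 WHP/WLP of each of the 9 pool pairs (dots, coloured by area) and the mean of 3 areas (black bar) for the 24 members past the threshold, ordered by position, with the distance from Lat in Mb in brackets. In 22 of the 24 all dots lie on one side of 0; Acsm5 and Edrf1 each have 1 pair on the other side.

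The members farthest from 0 were unnamed probes of the flanks, shown above. TC597993, at chr1:193184228-193184287 on the minus strand, had ratios of 1.36, 1.22 and 1.30 in the nucleus accumbens, 0.86, 1.06 and 1.33 in the prefrontal medial cortex, and 1.47, 1.04 and 1.42 in the hippocampus. The lowest pair was prefrontal pair 1 and the areas overlapped. Its mean of 1.23 ± 0.058 is a 2.35-fold ratio, and the mean passed under all 18 alternatives. The nearest named member probes are those of Mmp21, 10.2 kb before it and not detected, and Bccip, 29.9 kb after it at 0.07 ± 0.072; the probe of the left-out gene lies 4.01 kb after it on the same strand. Edrf1, an erythroid differentiation regulatory factor gene just before it, stood at -0.16 ± 0.032 and passed in 8 of 18 alternatives.

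TC601270, at chr1:179413573-179413632 on the minus strand, had ratios of 0.92, 1.28 and 1.44 in the nucleus accumbens, 0.69, 1.13 and 1.03 in the prefrontal medial cortex, and 1.42, 1.11 and 1.04 in the hippocampus. The lowest value was in prefrontal pair 1, and the areas overlapped. Its mean of 1.12 ± 0.068 is a 2.17-fold ratio, and it was 1.93 with processed signals. The nearest named member probes are Abca15, 341 kb before it and not detected, and Uqcrc2, 76.3 kb after it at 0.12 ± 0.036. In the central stretch, the unnamed transcript probe ENSRNOT00000052100 at chr1:186648622-186648681 had ratios of 0.58, 0.30 and 0.14 in the nucleus accumbens, 0.30, 0.55 and 0.42 in the prefrontal medial cortex, and 0.47, 0.44 and 0.52 in the hippocampus. All were above 0, the mean was 0.41 ± 0.046, and it lies 50.6 kb after Itgal and 36.2 kb before Zfp688, which stood at 0.11. The 3 smaller unnamed members that passed and are not described above lay below 0: the probe at chr1:186845383-186845442 at -0.16 ± 0.024, that at chr1:187261782-187261841 at -0.10 ± 0.021, and that at chr1:187494444-187494503 at -0.10 ± 0.022. They passed in 17, 3 and 1 of 18 alternatives.

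Of 15 measured mitochondrial and energy genes, 12 had a positive ratio and 2 passed, Acsm5 and Acadsb, with a median of 0.0591. Over all named genes 6336 of 12519 were positive, and nothing is read from the count. Acsm5, a medium-chain acyl-CoA synthetase gene, had ratios of 0.70, -0.09 and 0.53 in the nucleus accumbens, 0.42, 0.60 and 0.40 in the prefrontal medial cortex, and 1.29, 0.68 and 0.46 in the hippocampus. Nucleus accumbens pair 2 lay below 0 and hippocampus pair 1 was far above the rest. The mean was 0.55 ± 0.10 and 0.92 with processed signals. Its neighbour Acsm3 stood at 0.14 ± 0.063, above 0 in 8 of 9 pairs and not past the threshold; Acsm5 and Acsm3 were the only 2 of 5 genes of this cluster on the array detected in all areas. Acadsb, which oxidises short branched-chain acyl-CoA, had 2 probes on the same side. The brighter one had ratios of 0.20, 0.48 and 0.13 in the nucleus accumbens, 0.30, 0.05 and 0.20 in the prefrontal medial cortex, and 0.25, 0.10 and 0.16 in the hippocampus. All were above 0, with a mean of 0.21 ± 0.042 that passed in 6 of 18 alternatives, and the dimmer one stood at 0.16 ± 0.078. Coq7, of ubiquinone synthesis, was below 0 in 9 of 9 pairs at -0.13 ± 0.034 without passing.

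The list named for ethanol and xenobiotic handling measured 5 genes, and none passed. Only Sult1a1 among them conjugates foreign compounds; Vkorc1 acts in the vitamin K cycle, Hsd3b7 in bile acid synthesis, Gdpd3 on lysophospholipids and Mgmt in DNA repair. Sult1a1, a phenol sulfotransferase gene, had ratios of 1.06, 1.50 and -0.65 in the nucleus accumbens, -0.62, 0.07 and 0.44 in the prefrontal medial cortex, and 0.67, -0.20 and 0.37 in the hippocampus. They ran from -0.65 to 1.50, and the mean of 0.30 ± 0.22 was 0.15 without nucleus accumbens pair 2. In the same pairs the median of 11 meninges and fibroblast markers was 1.32, 3.00 and -1.16 in the nucleus accumbens, -1.06, -0.18 and 1.14 in the prefrontal medial cortex, and 1.29, -0.02 and 0.65 in the hippocampus; both were high in nucleus accumbens pairs 1 and 2 and low in pair 3. Their part in the Sult1a1 values was not tested. Mgmt, which repairs alkylated guanine, had ratios of 0.18, 0.28 and 0.21 in the nucleus accumbens, -0.24, 0.39 and 0.15 in the prefrontal medial cortex, and 0.94, 0.35 and 0.34 in the hippocampus. Hippocampus pair 1 was highest and prefrontal pair 1 below 0, and the mean of 0.29 ± 0.078 did not pass.

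Eef2k, the kinase of elongation factor 2, was above 0 with both probes. The probe at chr1:179756146-179756205 had ratios of 0.20, 0.40 and 0.14 in the nucleus accumbens, 0.21, 0.44 and 0.33 in the prefrontal medial cortex, and 0.68, 0.25 and 0.06 in the hippocampus, all above 0. Its mean was 0.30 ± 0.062 and passed in 8 of 18 alternatives; it was 0.55 with WHP in Cy5 only and 0.05 with WHP in Cy3 only. The other Eef2k probe stood at 0.14 ± 0.036 and did not pass. An unnamed probe on the same strand 1.39 kb further, CX569427, had ratios of 0.32, 0.27 and 0.26 in the nucleus accumbens, 0.10, 0.48 and 0.31 in the prefrontal medial cortex, and 0.59, 0.21 and 0.19 in the hippocampus. It was above 0 in every pair, with a mean of 0.30 ± 0.052. Vwa3a, upstream of Eef2k, was also above 0 in 9 of 9 pairs at 0.35 ± 0.085 without passing.

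No gene of the synaptic list, which also holds Eef2k, passed by its brightest probe. Of 20 measured, 5 had a positive ratio, and the median was -0.0239. The positive ratios over all named genes, 6336 of 12519, stand beside this count and that of the growth genes below. Nothing is read from either. Hs3st2, a heparan sulfate sulfotransferase of neurons, had ratios of 1.20, -1.35 and -0.73 in the nucleus accumbens, 0.82, -0.51 and 0.13 in the prefrontal medial cortex, and -0.21, -0.28 and -0.58 in the hippocampus. Nucleus accumbens pair 1 and prefrontal pair 1 were high and nucleus accumbens pair 2 was low. In those same pairs the median of 12 cortex markers was 0.15, -0.29 and -0.17 in the nucleus accumbens, 0.41, -0.30 and -0.04 in the prefrontal medial cortex, and -0.08, 0.04 and -0.03 in the hippocampus; their part was not tested. The AMPA receptor auxiliary subunit gene Cacng3 stood at -0.12 ± 0.068 and the protein kinase C gene Prkcb at -0.09 ± 0.090 with its brighter probe. Of 13 growth and kinase signalling genes none passed, 2 had a positive ratio and the median was -0.0486. Ate1 stood at -0.19 ± 0.055 by its brighter probe, Htra1 at -0.13 ± 0.057 and Lhpp at -0.11 ± 0.024. That Ate1 probe stood at 0.02 with WHP in Cy5 only and -0.39 with WHP in Cy3 only. The dimmer Ate1 probe stood at 0.002 ± 0.037. Of 8 genes listed for sodium and ion transport, 1 passed, Umod, at 0.15 ± 0.029. It encodes the secreted glycoprotein uromodulin and is no channel or carrier, so no channel or carrier of the list passed. Its probe was well above background on 14 of 18 arrays in WHP and 10 in WLP. Those WLP arrays are too few for detection in every area through WLP. In some area the Umod probe thus counted as detected through WHP alone, the strain where it was higher. Nothing is read from its pass, and its value was 0.56 with processed signals. The sodium-linked sugar carrier genes Slc5a11 and Slc5a2 stood at -0.06 and -0.05.

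The other members that passed were small in size. Wdr11 passed with 1 of its 4 probes, at -0.13 ± 0.027 and in 2 of 18 alternatives, while its brightest probe stood at 0.05 ± 0.027. Paox, a polyamine oxidase gene, passed at 0.15 ± 0.025 with all 9 pairs above 0, and stood at 0.07 with WHP in Cy5 only and 0.23 with WHP in Cy3 only; its second probe stood at 0.05 ± 0.026. Over the 45 genes of the stretch with several probes detected in all areas, the probes had the same sign in 30, and the range between probes of a gene had a median of 0.0608 and reached 0.215. The median GC content was 47.5% for the 24 probes that passed and 45% for the other 326, and 5 and 58 of them covered more than 100 bases of genome.

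Where probes overlapped, they were mostly on opposite strands: of 19 merged loci with several probes, 16 held both strands. The overlapping Uqcrc2 and Pdzd9 probes stood at 0.12 and 0.07, those of Coro1a and an unnamed plus-strand transcript at 0.01 and -0.01, and those of Kat8 and Prss8 at 0.03 and -0.09. The overlapping same-strand Sec23ip probes, which share most of their interval, stood at 0.08 and 0.08.

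The central 5 Mb were then set against their flanks over merged loci detected in all areas, 147 in the centre and 192 in the flanks. The median absolute mean ratio was 0.0438 in the centre and 0.0488 in the flanks, against 0.0439 for all probes of the array. By area the centre and flanks had 0.0692 and 0.0773 in the nucleus accumbens, 0.0548 and 0.0648 in the prefrontal medial cortex, and 0.0438 and 0.0547 in the hippocampus. In single pool pairs the centre was lower in 6 of 9 and higher in 3. In the mean of areas the difference was -0.00504, and it was 0.00778 with processed signals. The differences of single pool pairs had an SD of 0.0125, which is no error of the difference in the mean. The 90th percentile of the absolute mean ratio was 0.175 in the centre and 0.149 in the flanks, but single areas differed in direction. Centre and flanks had 0.252 and 0.244 in the nucleus accumbens, 0.19 and 0.191 in the prefrontal medial cortex, and 0.183 and 0.194 in the hippocampus.

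**Figure D3:**
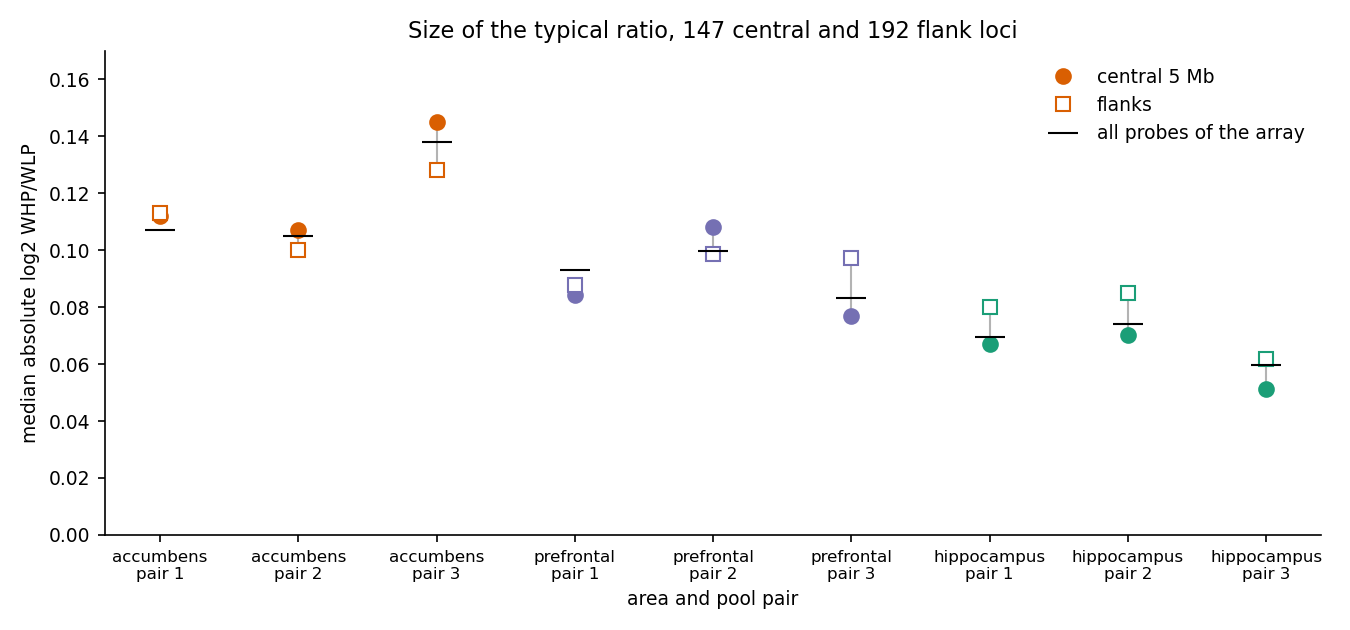
Median absolute log2 WHP/WLP in each pool pair over 147 central loci (filled circles) and 192 flank loci (open squares), with all probes of the array as a bar. Centre and flanks lie close to each other and to the array, with the centre lower in all 3 hippocampus pairs.

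Sharing of the sign was counted next. In the centre 19 of 147 loci (12.9%) lay on one side of 0 in every pool pair, 4 above and 15 below. In the flanks these were 10 of 192 (5.21%), 8 above and 2 below 0. Over all probes of the array the share was 3.45%. No test is given, as the window was chosen on these ratios. Under 7 alternative settings the centre held between 10.2% and 13.8% and the flanks between 4.06% and 6.25%. Of the 19 central loci, 12 are among the 55 loci between 186 and 187 Mb, and 5 among the 49 between 187 and 188 Mb. The first of these megabases holds 56 of the 350 tested probes and 10 of the 24 that passed, 2 higher and 8 lower. Without nucleus accumbens pair 3 and hippocampus pair 2, the shares with 1 sign in all 7 pairs left were 15% and 8.33%. Fewer pairs share a sign more easily. No share over the array is given for these 7 pairs or for the alternative settings, so they cannot be set beside 3.45%. In the flanks 4 of the 10 are among the 15 loci between 179 and 180 Mb, around Eef2k.

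At the edges of the window and of its centre the values were small. The last detected probe below the window stood at -0.02 and the first inside, Xylt1, at -0.02 ± 0.024. Gsg1l, just below the centre, stood at 0.05 ± 0.048 and the overlapping unnamed probes just inside it at 0.03 and 0.02. At the upper edge of the centre Nsmce4a stood at 0.12 ± 0.050 inside and Tacc2 at -0.02 ± 0.041 outside. The last detected member, TC601908, stood at -0.06 ± 0.11 and the first detected probe beyond the window, Or6b13, at 0.03.

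The level of each member, averaged over both strains, was not used to choose the window and was tested between areas. In the nucleus accumbens against the prefrontal medial cortex 10 of 376 members passed at an adjusted p under 0.05 and at least 2-fold (limma), 2 higher (0.532%, array 0.893%) and 8 lower (2.13%, array 1.17%). In the lower flank 5 of 104 were lower (4.81%), in the centre 2 of 160 (1.25%) and in the upper flank 1 of 112 (0.893%). Syt17, a synaptotagmin gene, had levels of 10.81 ± 0.16 in the nucleus accumbens, 12.53 ± 0.28 in the prefrontal medial cortex and 11.88 ± 0.033 in the hippocampus on the log2 signal scale (SD, n = 3 pool pairs); it was 3.29-fold lower in the nucleus accumbens (adjusted p = 1.02e-05, limma). Hs3st2 was 2.99-fold lower, Prkcb (its dimmer probe) 2.79-fold and Coro1a 2.04-fold. The brighter Prkcb probe did not pass. The cortex markers given above were also lower in the nucleus accumbens than in the prefrontal arrays, and their part was not tested. Cacng3 had levels of 9.48, 9.22 and 9.37 in the nucleus accumbens, 10.58, 10.45 and 10.75 in the prefrontal medial cortex, and 9.43, 9.24 and 9.36 in the hippocampus. The prefrontal values lay above all others, and the gene was 2.36-fold lower in the nucleus accumbens. Nkx6-2, a homeobox gene of oligodendrocyte development, was 2.34-fold higher. Oligodendrocyte markers (10 genes) stood at 4.60 ± 0.14 over the median probe, on the log2 scale, for the nucleus accumbens and at 3.43 ± 0.67 for the prefrontal arrays (SD, n = 6); their part was not tested. With each array centred on its median, 5 members passed instead of 10 (1 higher, 4 lower); Coro1a, at -0.89 on the log2 scale, was not among them.

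In the hippocampus against the other areas 17 of 412 members passed, 5 higher (1.21%, array 2.53%) and 12 lower (2.91%, array 2.99%). This split turned with the scaling: with each array centred on its median, 23 passed, 18 higher and 5 lower, against 6.42% higher and 1.94% lower over the array. The genes named next kept their direction under both scalings. Spn, by its brighter probe, had levels of 7.15, 7.18 and 7.23 in the nucleus accumbens, 7.15, 6.99 and 6.99 in the prefrontal medial cortex, and 8.40, 8.45 and 8.33 in the hippocampus. The hippocampus lay above both other areas without overlap, 2.42-fold higher (adjusted p = 3.97e-08, limma). The dimmer Spn probe, near background, had means of 6.76, 6.81 and 6.70 in the nucleus accumbens, prefrontal medial cortex and hippocampus, and did not pass (adjusted p = 0.0985, limma). Ptpre, a receptor tyrosine phosphatase gene, was 3.04-fold higher by its brightest probe, and the probe at chr1:195297776-195297835 passed at 2.43-fold. The Ptpre probes at chr1:195271580-195271639, chr1:195279291-195282779 and chr1:195288741-195288800 did not pass. Lower in the hippocampus were the kinase gene Stk32c (2.86-fold), the phosphatase subunit gene Ppp4c (2.80-fold), the mitochondrial elongation factor gene Tufm (2.39-fold), the glycolytic Aldoa (2.29-fold) and the stress gene Nupr1 (2.27-fold). With median centring Aldoa and Nupr1 stood at -0.69 and -0.85 on the log2 scale, short of the 2-fold limit. Of the 12 lower, 7 lie in the centre, 4.14% of the 169 members tested there, against 2.99% over the array. This count is that of the main scaling, and with median centring only 5 members of the whole stretch were lower. The hippocampus arrays were on slides and in a scan session of their own, so that area and session cannot be told apart.

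**Figure D4:**
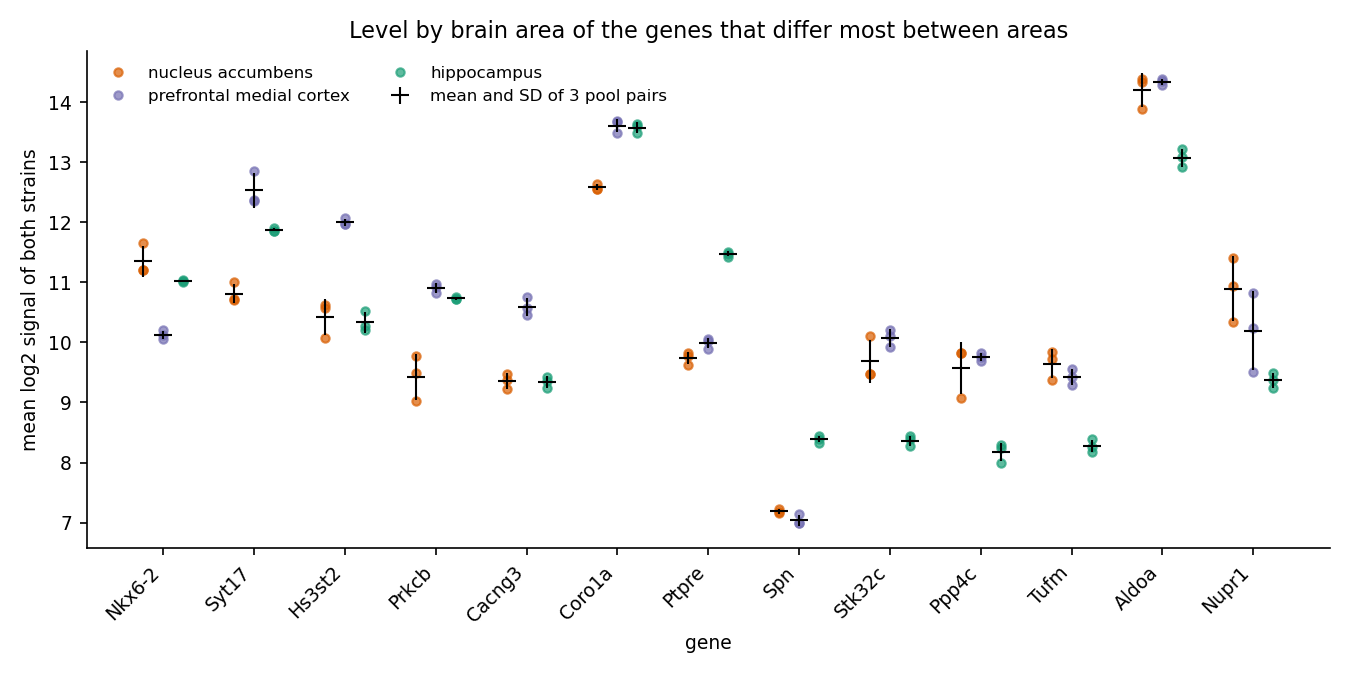
Mean log2 signal of both strains in each pool pair (dots, by area) with the mean and SD of 3 pool pairs, for the 13 genes of the stretch named by the rule for level contrasts. By the probes shown, every nucleus accumbens value of Syt17, Hs3st2, Prkcb, Cacng3 and Coro1a lies below every prefrontal one. The probes shown for Spn and Ptpre are highest in the hippocampus. Levels of different genes are not comparable.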

How the data were processed

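Pooled RNA of 2 strains was hybridised to 18 two-colour Agilent arrays. The deposited scanner files hold spot intensity per channel, made with Agilent Feature Extraction per the file headers. A deposited table of log2 values, of unstated processing, was also read; its columns had medians of -0.0106 to 0.0218, correlated at 0.547 to 0.979 with the WHP over WLP log2 ratios computed here, and served as an alternative.

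Mean signals were corrected with normexp on the median background (offset 50, which pulls ratios of dim probes toward 0), normalized within arrays by loess and, for levels, between arrays by Aquantile (limma 3.58.1, R 4.3.3). Spots of a probe were averaged, and both arrays of a dye swap were averaged into 1 value per pool pair. limma was fitted on all detected probes over the 9 pool pairs with a mean per area, with Benjamini-Hochberg adjustment, and was tested on simulated data. Probe names and rn4 positions are those of the scanner files, with symbols updated through a RefSeq gene table; whether a probe lies in an exon or UTR is not analysed here.

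The members and lists were chosen with earlier results of these data known. Named members were Lat, all loci that passed, those with the largest absolute ratios in the centre and each flank, up to 4 of each list, those at the boundaries, and up to 5 genes each way per level contrast; other genes named beside them were chosen after their values were seen. A gene with several probes counts in a list by its brightest. Alternatives covered signals, background correction, the value table, dye orientation, the detection filter, each pool pair left out, the replicate number or slide as a block, areas fitted alone, merging and window edges. Some values and 1 probe sequence are not reported here.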

Additional observations from a re-analysis of the deposited data

How the results depend on the processing

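All 24 named members that passed kept their direction in the alternatives run for each (18 for most), and 5 passed in all of them: TC601270, Lat, the brighter Ino80e probe, Bcl7c and TC597993. Of the 33 named members that did not pass, 11 changed sign in some alternative and 21 passed in none. The count of members past the threshold, 24 in the mean of areas, ran from 9 to 35 with 1 pool pair left out, while the share over the array ran from 1.1% to 5.47%. It was 7 with the nucleus accumbens and hippocampus only and 6 without nucleus accumbens pair 3 and hippocampus pair 2, both chosen after seeing the data. The counts within areas were 2 each. With a pair left out they ran from 1 to 5 in the nucleus accumbens (share over the array 0.0761% to 2.4%). In the prefrontal medial cortex they ran from 0 to 2 (0.00348% to 0.129%), and in the hippocampus from 0 to 3 (0.0259% to 0.296%). The 5, without nucleus accumbens pair 1, were 1.34% of members against 2.4% over the array. With each area fitted alone the counts were 0 (0.0%, 0.00348% and 0.0547%, in the same order). In the nucleus accumbens the count was 4 with processed signals (0.258%) and 1 with WHP in Cy3 only (0.0463%). In the prefrontal medial cortex it was 4 with WHP in Cy5 only (0.243%), 0 with WHP in Cy3 only (0.00696%) and 1 with no detection filter (0.0561%). In the hippocampus it was 1 with WHP in Cy3 only (0.173%). The centre minus flank difference in median absolute ratio, -0.00504, was 0.00778 with processed signals. The level count of 10 between nucleus accumbens and prefrontal medial cortex was 5 with median centring, and that of the hippocampus went from 17 (5 higher, 12 lower) to 23 (18 higher, 5 lower). The cause of these changes was not tested. Dim probes near background, such as those of Umod and Spn, have ratios that depend on the background correction.

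With the replicate number as a block, 12 members passed in the mean (share over the array 1.73%) and 1 in the nucleus accumbens (0.0364%). None passed in the prefrontal medial cortex (0.0104%) and 1 in the hippocampus (0.0547%). The level counts stayed at 10 and 17. Deviations of same-numbered pool pairs of different areas correlated at -0.38 to 0.17. Noise of single arrays also enters these deviations, so they cannot tell if the numbers pair the samples.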
